A study of Mus musculus with 12 samples.

Results

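The microRNA (miRNA) signal of normal quadriceps muscle, a large muscle of the thigh, was described in 6 wild-type (WT) mice at postnatal day 7. These were the 6 of 12 samples titled WT1 to WT6, each from 1 mouse of the C57Bl/6 strain, and no gene was altered in them. They served in the study as littermates of 6 cofilin-2 deficient mice, whose samples entered no value given here. The array carried 1096 mouse miRNA names of miRBase version 17, and all of them were read in every WT mouse. Total RNA of whole muscle was labelled with Cy5 in all 6 samples, and the deposited values were normalized intensities on a linear scale. The brightness of a probe depends on how well it binds as well as on how much miRNA is present, so ranks, shares and ratios between names are of signal and not of molecules. Whole muscle holds several cell types, and fewer cells of a type cannot be told apart from less RNA per cell. No groups were compared and no p-value was computed: precision was read from the standard deviation (SD) over the 6 mice and from how many mice shared an order.

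miRNAs are short RNAs cut from a hairpin, of which either arm, called 5p and 3p, can be kept. The kept strand guides a silencing complex to messenger RNAs, mainly through its seed, the bases 2 to 8, so that miRNAs with 1 seed form a family with overlapping targets. Many are made together from neighbouring genes on a single long transcript, a cluster. In muscle, miR-1a, miR-133a, miR-133b and miR-206 are the best known: miR-1a and miR-206 are linked to differentiation, and the miR-133 pair to the balance between growth of precursor cells and differentiation. In the older names used on the array, a star marks the arm that was first seen less often.

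Mature sequences were taken from RefSeq (GRCm38.p6) for 14 of the 20 brightest names and some of their relatives. They are written 5′ to 3′ with the seed in capitals. The probes may follow an older form of a sequence. The muscle miRNAs miR-206 (chr1:20679055-20679076, plus strand) and miR-133b (chr1:20682834-20682855, plus strand) lie in the same long non-coding RNA gene, Lincmd1, and are shown because they share a locus and not a seed.
miR-206: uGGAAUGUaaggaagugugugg
miR-133b: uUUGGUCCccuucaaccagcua

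The let-7 miRNAs, which rise as tissues mature and restrain growth genes, are shown because 1 seed, GAGGUAG, gathered more signal than any other seed among the names with a sequence. They differ outside it: let-7a has 1 mismatch to let-7c and 1 to let-7f, and let-7d has 6 to let-7i. Probes for such close sequences can take up each other's miRNA. let-7d lies at chr13:48536078-48536099 on the minus strand and let-7i at chr10:122985698-122985719 on the minus strand.
let-7a: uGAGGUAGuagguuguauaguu
let-7c: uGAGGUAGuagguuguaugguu
let-7f: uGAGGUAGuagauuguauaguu
let-7d: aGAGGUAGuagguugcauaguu
let-7b: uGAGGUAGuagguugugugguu
let-7i: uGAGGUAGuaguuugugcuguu
let-7g: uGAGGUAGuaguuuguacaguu

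The next set comes from the imprinted Dlk1-Dio3 region of chromosome 12, whose miRNAs are made from the maternal copy, and is shown because 3 of the 20 brightest names belong to it. miR-127 (chr12:109592888-109592909) and miR-434-3p (chr12:109594565-109594586) lie within the bounds of Rtl1, while miR-379 (chr12:109709065-109709085) and miR-495 (chr12:109718795-109718816) lie further along, all on the plus strand. Their seeds are all different.
miR-127: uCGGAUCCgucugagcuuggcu
miR-434-3p: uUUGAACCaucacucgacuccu
miR-379: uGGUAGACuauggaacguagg
miR-495: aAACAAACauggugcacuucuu

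The last set holds bright miRNAs with other hosts, and the GC-rich names miR-5126, miR-1895 and miR-149*. miR-214 (chr1:162223438-162223459, plus strand) is shown beside miR-199a-3p because both come from the Dnm3os transcript, although miR-199a-3p is also made at a second locus in Dnm2. miR-335-5p (chr6:30741314-30741336, plus strand) lies in Mest, an imprinted gene, and miR-26a has genes in Ctdspl and Ctdsp2. miR-5126 (chr1:84695890-84695911, plus strand) lies within Dner and contains no A or U.
miR-214: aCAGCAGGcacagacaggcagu
miR-199a-3p: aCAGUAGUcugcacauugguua
miR-335-5p: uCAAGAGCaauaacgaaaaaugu
miR-26a: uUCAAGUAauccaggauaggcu
miR-5126: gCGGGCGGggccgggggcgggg
miR-1895: cCCCCGAGgaggacgaggagga
miR-149*: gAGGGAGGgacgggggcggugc

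A small number of miRNAs held most of the signal. The intensities of a mouse summed to between 594311 in WT1 and 626783 in WT6, and the median name had an intensity of only 13 to 14. A name was taken as detected at a mean intensity of at least 32, which 359 of the 1096 names reached. Of all names, 299 were at 32 or more in every mouse, 140 in some mice and 657 in none. The brightest single name held 7.35% of the signal, the 10 brightest held 33.4% ± 1.18 (SD, n = 6) and the 20 brightest 49.3% ± 1.51 (SD, n = 6). It took 21 names to reach 50% of the mean signal and 110 to reach 90%, while the undetected names together held 1.18%. WT1 stood lowest, with 46.0% in the 20 brightest names, and the other 5 mice lay between 49.3% and 51.0%. Across the 359 detected names, the log2 intensities of the mice correlated with an r of 0.918 to 0.987 over 15 pairs of mice, which share the probes and their affinities. The highest r was between WT2 and WT3 and the lowest between WT1 and WT5.

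**Figure D1:**
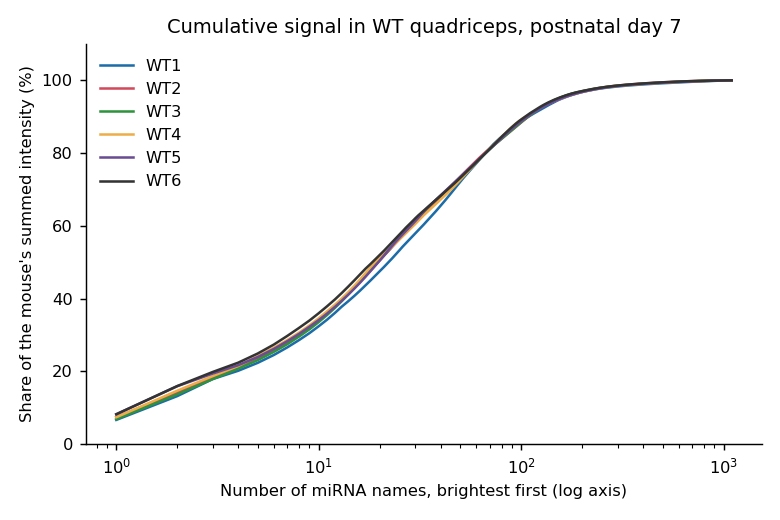
Share of a mouse's summed intensity (y axis, %) held by its brightest miRNA names, added up in each mouse's own order (x axis, number of names on a log scale), with a line per WT mouse. WT1 needed 23 names to reach 50% and the other mice 19 to 20, and every mouse reached 90% with 105 to 109 names.

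miR-1a was the brightest miRNA. Its intensity was 39535 in WT1, 41954 in WT2, 42439 in WT3, 45235 in WT4, 51169 in WT5 and 51374 in WT6, a mean of 45284 ± 4979 (SD, n = 6). miR-709, whose gene lies in Rfx1, followed with 38856, 46006, 42249, 44696, 47894 and 48660 in the same order of mice, a mean of 44727 ± 3681 (SD, n = 6). These 2 names were the brightest in every mouse, and miR-1a was above miR-709 in 5 of the 6 mice, all but WT2, so their order was within the spread.

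miR-206 had rank 3 in all 6 mice, with 28009 in WT1, 25024 in WT2, 26028 in WT3, 24784 in WT4, 21732 in WT5 and 24371 in WT6. Its mean was 24991 ± 2061 (SD, n = 6), and it was highest in WT1, where miR-1a was lowest. The ratio of miR-1a to miR-206 accordingly ran from 1.41 in WT1 to 2.35 in WT5. let-7a came next at 14877 ± 1399 (SD, n = 6). Below let-7a the order was not settled: of the 19 neighbouring pairs among the 20 brightest names, only miR-709 above miR-206 and miR-206 above let-7a kept their order in all 6 mice.

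The remaining bright names were a mixture of let-7 members, imprinted miRNAs, muscle miRNAs and later additions to miRBase. let-7f had a mean of 11722 ± 867, let-7c 11410 ± 927 and let-7d 11199 ± 708 (SD, n = 6). miR-26a, a widely expressed miRNA tied to muscle differentiation, had 13324 ± 1147, and miR-378, linked to energy metabolism, had 11204 ± 1045. The highest mouse was 1.18-fold above the lowest for let-7d and 1.27-fold for miR-378, and the other 3 names lay between.

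Others among the 20 brightest varied more. miR-214, known from mesenchyme and muscle precursors, had a mean of 10975 ± 2540 and ran from 8679 in WT5 to 15018 in WT6. miR-335-5p was at 5318 in WT2, 5598 in WT3 and 6980 in WT1 against 10372 in WT4, 11298 in WT5 and 12598 in WT6. miR-5112 ran from 1425 in WT1 to 16838 in WT4, and its rank in a mouse ran from 4 to 81. Only 13 of the 20 names were among the 20 brightest of every mouse.

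**Figure D2:**
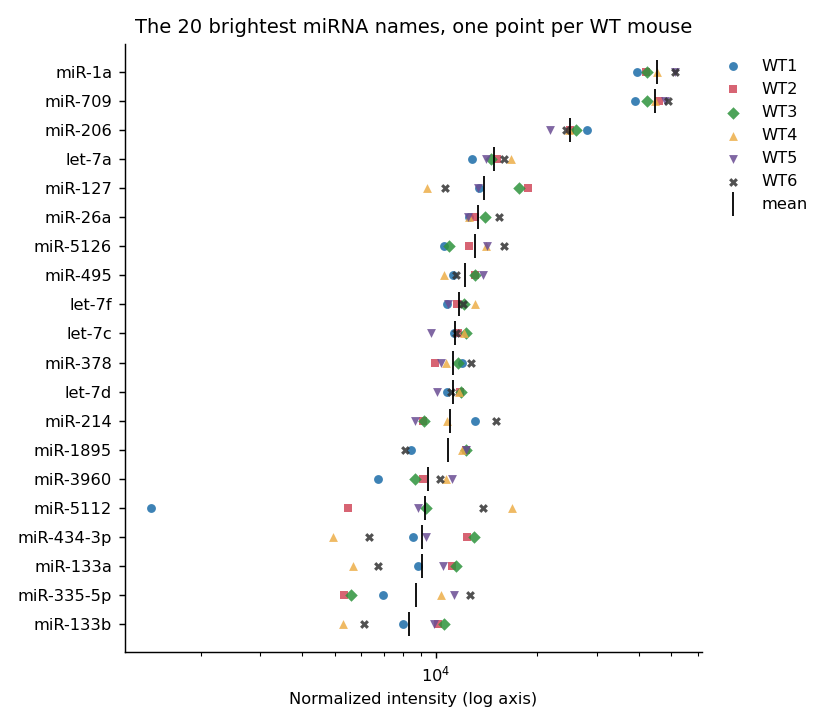
Normalized intensity (x axis, log scale) of the 20 miRNA names with the highest mean, with a point per WT mouse and a vertical bar at the mean of 6 mice. miR-1a, miR-709 and miR-206 lie apart on the right, the let-7 points lie close together, and miR-5112 spreads from 1425 to 16838.

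The tissue label was checked against miRNAs that mark muscle. miR-1a, miR-206, miR-133a and miR-133b together held 14.2% ± 0.590 (SD, n = 6) of the signal, with 13.2% in WT4 and 15.0% in WT5 as the extremes. They were the 4 detected names of 7 on the list of muscle-enriched miRNAs. The others, which lie in introns of myosin heavy chain genes, were under the detection minimum: miR-208a-3p had a mean of 3.5, miR-208b 3.67 and miR-499 13.8. miR-208a is best known from heart muscle and miR-208b and miR-499 from heart and slow muscle fibres. A further list member, miR-486, matched no name used here and was not analysed.

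miR-133a and miR-133b varied together from mouse to mouse. miR-133a was at 8866 in WT1, 11161 in WT2, 11466 in WT3, 5684 in WT4, 10459 in WT5 and 6726 in WT6. miR-133b was at 8006, 10106, 10526, 5297, 9869 and 6118 in the same order. Both were lowest in WT4 and WT6 and highest in WT2 and WT3, and their ratio stayed between 1.06 and 1.11, although they are made at separate loci. The near-identical mature forms can be read by each other's probes, and the part of this in the ratio was not tested.

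By contrast, each of them varied against the partner made from its own loci. miR-206 over miR-133b was 2.20 in WT5, 2.47 in WT3, 2.48 in WT2, 3.50 in WT1, 3.98 in WT6 and 4.68 in WT4. miR-1a over miR-133a was 3.70 in WT3, 3.76 in WT2, 4.46 in WT1, 4.89 in WT5, 7.64 in WT6 and 7.96 in WT4. In both locus pairs WT4 and WT6 had the highest ratios. The lower terms, miR-133a and miR-133b, varied together and were lowest in these 2 mice, so the pairs are not independent observations. The summed signal of miR-206 and miR-133b was 5.41% ± 0.529 (SD, n = 6), and that of miR-1a and miR-133a 8.82% ± 0.657 (SD, n = 6).

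Markers of other cell types fell into a bright and a dark set. Of the mesenchyme list, which held 3.18% ± 0.398 (SD, n = 6), miR-214 and miR-199a-3p, at 7631 ± 2085, made up most. In this list 4 of 5 names were detected, and miR-140 was under the minimum at 2.5. miR-143 and miR-145, a pair known from smooth muscle, had means of 3086 ± 433 and 1254 ± 326 and held 0.706% ± 0.103 (SD, n = 6). miR-126-3p, the defining endothelial miRNA, lay at 2550 in WT4 and 2230 in WT6 against 3489 to 4741 in the other mice. The other arm of its hairpin, miR-126-5p, is also on the endothelium list and was under the minimum, with a mean of 4. Among the nervous system list, 2 of 7 names were detected, near the 32.8% detected over the whole array. These were miR-128 at 1283 ± 244 and miR-132 at 45.3, while the neuronal miR-124 was at 9 and miR-9 at 2.67.

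Blood, epithelium and liver markers were dim. miR-451, made in red blood cells, ran from 43 in WT6 to 417 in WT2, and its companion miR-144 had a mean of 3.17. None of 5 white blood cell miRNAs was detected, the highest being miR-150 at 28.7. None of 7 epithelial miRNAs was detected, with a highest mean of 8 for miR-203, and miR-375 of pancreatic islets had 4.83. Of 3 liver miRNAs, miR-122 was at 7.83 and only miR-192 passed the minimum, at 36.5, a count near the share over the array. Of 15 names typical of embryonic stem cells, miR-290-5p and miR-294 passed, at 93.8 and 72.2.

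**Figure D3:**
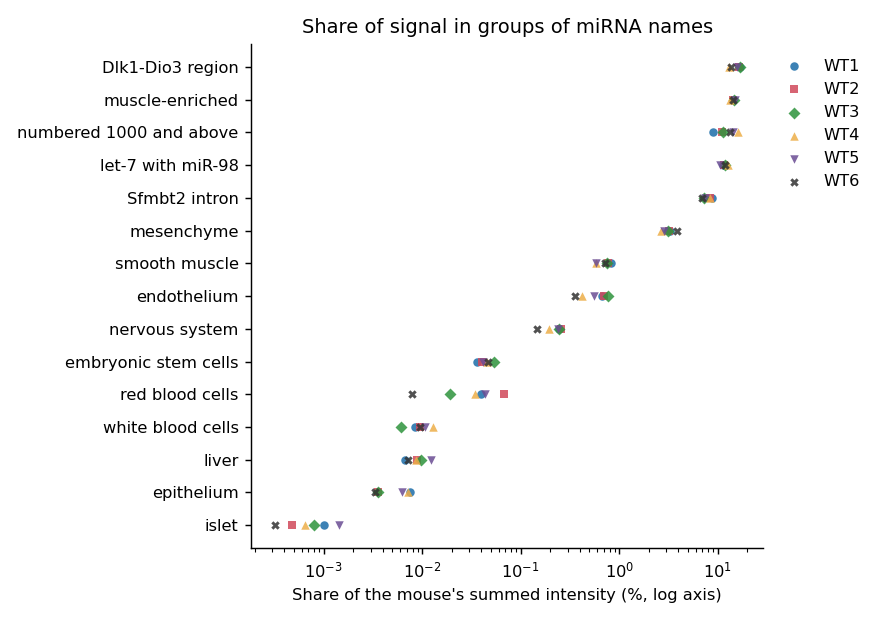
Share of a mouse's summed intensity (x axis, %, log scale) held by groups of miRNA names (y axis), with a point per WT mouse. The Dlk1-Dio3, muscle, later-numbered, let-7 and Sfmbt2 groups each lie above 5%, and the white blood cell, liver, epithelium and islet lists lie below 0.02% in every mouse.

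Grouped by seed, let-7 was the leading family among the names with a sequence. Its 9 detected names, miR-98 among them, held 11.6% ± 0.691 (SD, n = 6), with 10.5% in WT5 as the lowest and 12.6% in WT4 as the highest. Within the family, let-7a at 14877 was the brightest and miR-98 at 77.0 ± 49.9 the dimmest. let-7a over let-7f was between 1.19 and 1.32 in all mice. Among 251 detected names with a sequence, which held 61.5% of the signal, there were 210 seeds, and 21 of these were shared by more than 1 name.

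Most other leading seeds belonged to a single name among those with a sequence. miR-206 was second with 4.06% ± 0.401 (SD, n = 6), and miR-26a with miR-26b followed with 2.54% ± 0.199. The members of this pair did not keep a fixed proportion: miR-26b ran from 1367 in WT2 to 3323 in WT5 while miR-26a stayed between 12456 and 15330, so their ratio ran from 3.75 to 9.56. Next were miR-127, miR-5126, miR-495, miR-214 and miR-1895, with 2.25%, 2.11%, 1.98%, 1.78% and 1.77%. miR-1a and miR-133a had no sequence here, and their signal was therefore left out of the order of seed families. The share given for the seed of miR-206 holds no signal of miR-1a, and that of miR-133b none of miR-133a. miR-1a alone held 7.35% of the signal, so the lead of let-7 and the place of miR-206 are not settled for the full families.

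Grouped by position in the genome, the imprinted Dlk1-Dio3 region held the largest share of the regions looked at. Of its 112 names, 61 were detected, and they brought the region to 15.4% ± 1.62 (SD, n = 6), with 13.1% in WT4, 13.7% in WT6 and 15.8% to 16.8% in the other mice. When genes on 1 strand and less than 10 kb apart were joined, most of this signal fell into 2 clusters. The cluster of miR-127 and miR-434-3p, with 15 detected names, held 6.83% in WT2 and 6.75% in WT3 but 3.72% in WT4 and 4.38% in WT6.

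The cluster of miR-495 and miR-379, with 43 detected names, held 9.43% ± 0.613 (SD, n = 6), and ran from 8.78% in WT6 to 10.3% in WT1. This was the largest share of any cluster among names whose genes all lie in 1 cluster. The order leaves out 25 names with genes at several places and 22.7% of the signal, let-7f, let-7c and miR-26a among them. miR-1a with miR-133a, not counted as a cluster, held 8.82%. The miR-495 cluster holds miR-329 at 4413 ± 918, miR-410 at 3794 ± 1018 and miR-382 at 2981 ± 362. These are named with their intensities because they are members of a leading cluster. miR-410 was at 1837 in WT4 against 3723 to 4598 in the other mice. miR-127 itself was at 9423 in WT4 and 10647 in WT6, at 13364 to 13403 in WT5 and WT1, and at 17671 to 18769 in WT3 and WT2. miR-434-3p had the same 2 lowest mice, WT4 at 4957 and WT6 at 6310, and the same 2 highest.

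The intron of Sfmbt2, an imprinted gene on chromosome 2 that holds a large repeated cluster in the mouse, gave 7.86% ± 0.748 (SD, n = 6) from 29 detected of 57 names. Its brightest names were miR-467b* at 5906 ± 764 and miR-467d* at 4559 ± 561. All names numbered as miR-669, miR-467, miR-466 and miR-297, which are close in sequence, held 11.5% ± 1.19, and 12 detected names of these were not assigned to Sfmbt2 alone: 8 have genes elsewhere only, 3, miR-466f-3p among them, have genes both there and elsewhere, and 1 has no gene in the table. miRNAs of near-identical sequence are hard to separate with probes, so the split among these names is uncertain.

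Other imprinted loci added to this. miR-335-5p of Mest had a mean of 8694 ± 3123, and miR-483 of the growth factor gene Igf2 had 2416 ± 545, while miR-675-5p and miR-675-3p of H19 were under the minimum at 29.3 and 27.8. The names of these imprinted loci, a group formed after the values were seen, together held 25.1% ± 1.53 (SD, n = 6), from 23.0% in WT6 to 27.2% in WT1. The proliferation-linked miR-17 clusters and their relatives held 0.502% with 14 of 25 names detected. Among pairs of neighbouring genes, miR-3960 with miR-2861 held 2.08% ± 0.335 and miR-23b with miR-27b 1.14% ± 0.292.

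In most hairpins 1 arm held nearly all the signal. Both arms were on the array, and at least 1 was detected, for 207 hairpins. The brighter arm held at least 90% of the signal of both arms in 135 of them (65.2%), and the median hairpin had 95.0% in the brighter arm. The same arm was brighter in all 6 mice in 196 hairpins. Both arms were detected in only 55 of the 207. In the others the dimmer arm was under the detection minimum, which largely set the order in advance. The 3p arm was the brighter one in 100 and the 5p arm in 86 of the 186 hairpins whose arms were known.

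The bright hairpins were lopsided in every mouse. The arm that is named without a star held 99.99% in miR-206, 99.9% in miR-495, 99.7% in miR-214, 98.9% in miR-378 and 98.0% in miR-127. In miR-434 the 3p arm and in miR-335 the 5p arm held 99.7% and 99.6%. The other arm was plainly visible in let-7d, where let-7d* had a mean of 727.3 and let-7d held 93.9% ± 1.38 (SD, n = 6). In miR-133a and miR-379 the brighter arm held 95.4% ± 1.08 and 95.2% ± 2.43, beside 440.7 for miR-133a* and 404.2 for miR-379*.

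Among the 25 hairpins with both arms at a mean of at least 100, 5 were nearest to equal. miR-574-3p had 3309 ± 519 and miR-574-5p 2870 ± 563, so that 3p held 53.7% ± 1.71 (SD, n = 6), and it was the brighter arm in all 6 mice. miR-466i-5p held 58.5% ± 1.78, also in all 6 mice. In miR-195, of the growth-restraining miR-15 family, the unstarred arm held 56.4% ± 9.72 and was brighter in 4 of 6 mice. The starred arm of miR-328 held 28.3% in WT1 and 71.6% in WT4, and that of miR-485 held 48.0% to 73.5% and was brighter in 5 mice.

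The star did not always mark the dimmer arm. Among 149 hairpins named with a star, the starred arm was the brighter one in 40, and in 35 of these it was so in every mouse. In most of the 40 the other arm was under the detection minimum. With at least 1 arm at a mean of 100 the starred arm was the brighter one in 26. That minimum also leaves fewer hairpins named with a star, so 26 is not out of 149. Among those of the 149 numbered as miR-669, miR-467, miR-466 or miR-297 the starred arm was brighter in 8 of 10, with miR-467b* at 5906 against 3.67 for miR-467b. Outside it, miR-149* had 4902 ± 1966 against 26.7 for miR-149, miR-341* had 2566 ± 951 against 26.8, and miR-322* had 2187 against 101.8 for miR-322. Star names together held 8.80% ± 0.536 (SD, n = 6).

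**Figure D4:**
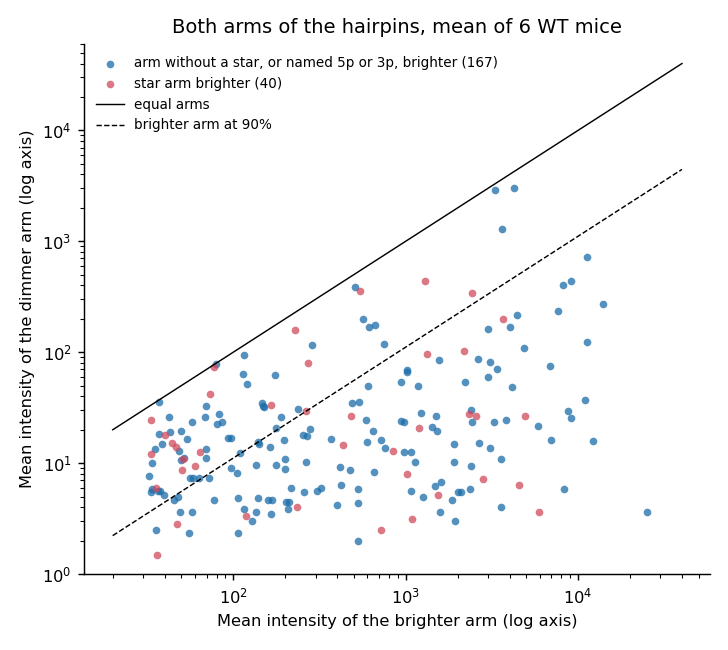
Mean intensity of the brighter arm (x axis, log scale) against the dimmer arm (y axis, log scale) for 207 hairpins, mean of 6 WT mice, with lines for equal arms and for a brighter arm at 90%. Most points lie below the dashed line, the few near the solid line include miR-574, and the 40 hairpins with a brighter star arm are in red.

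Among names added late to miRBase, those numbered 3000 and above varied more in their summed share than those numbered below 3000. The SD over mean of the share was 0.270 for numbers 3000 and above, 0.10 for numbers from 1000 to under 3000, 0.0415 for the muscle list, 0.0595 for let-7 and 0.105 for the Dlk1-Dio3 region. Over the other marker lists it ran from 0.125 for mesenchyme to 0.588 for red blood cells. Numbers 3000 and above include miR-5112 and miR-5107, and their share without these 2 names was not computed. For single names, the median CV was 0.313 for numbers 3000 and above, 0.298 for numbers 1000 and above and 0.310 for the Dlk1-Dio3 names. Names numbered 1000 and above held 12.6% ± 2.57 (SD, n = 6) from 69 detected of 305 names, with 9.05% in WT1 and 16.2% in WT4. Most of it came from miR-5126 at 13030 ± 2053, miR-1895 at 10882 ± 2031, miR-3960 at 9461 ± 1637 and miR-5112. miR-5107 was at 728 in WT1, 1410 in WT2, 1042 in WT3 and 3009 in WT6 but at 10848 in WT4 and 11114 in WT5. In the 13 detected names with a sequence of at least 70% G and C, the summed share was 6.41% ± 0.922, lowest in WT1 at 5.23%. Of these 13 names, 7 are numbered below 1000, so this share is not one of late names alone. Only 34 of the 69 detected names numbered 1000 and above had a sequence, and miR-3960, miR-5112 and miR-5107 had none.

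Spread between mice was smaller for bright names. The SD over the mean, the coefficient of variation (CV), had a median of 0.281 over the 359 detected names and 0.219 over the names with a mean of at least 500. It was 0.333 for means of 32 to 100 and 0.179 for means of 2000 and above. The steadiest names of at least 500 were miR-466m-3p with a CV of 0.0538, let-7i with 0.0561, let-7d with 0.0632, let-7f with 0.0740, let-7c with 0.0813 and miR-709 with 0.0823. For let-7i the 6 mice lay between 6526 and 7471.

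The least steady names of at least 500 were miR-140* with a CV of 1.07, miR-5107 with 1.05, miR-5112 with 0.597, miR-690 with 0.553, miR-3072* with 0.516 and miR-30b with 0.508. miR-140*, from a hairpin known from cartilage, was at 2241 in WT6 against 270 to 695 in the others, and miR-690 at 2244 in WT6 against 504 to 1004. miR-30b ran from 408 in WT6 to 1389 in WT5. A CV above 0.5 was seen in 37 detected names, of which 7 had a mean of at least 500.

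Some pairs of mice stood together more often than others. WT2 and WT3 were the highest 2 mice for 25 (17.2%) of the names with a mean of at least 500, and each of the other 14 pairs of mice for 2 to 17 names. WT4 and WT6 were the lowest 2 for 23 (15.9%) of all these names. Each of the other 14 pairs was lowest for 1 to 19 names, with 19 for WT4 and WT5. Of the 25 names, WT4 and WT6 were the lowest 2 for 14. Only pairs without WT2 and WT3 could be lowest there, so this count cannot be set beside that over all names. The 14 names are miR-133a, miR-133b, miR-126-3p, miR-127, miR-434-3p, miR-493*, miR-299*, miR-411*, miR-125a-5p, miR-125b-5p, miR-351, miR-128, miR-145 and miR-181a. They are not independent of each other. miR-127, miR-434-3p and miR-493* share a cluster, and so do miR-299* and miR-411*. miR-125a-5p, miR-125b-5p and miR-351 share a seed, and the miR-133 pair may be read by each other's probes. miR-214 over miR-199a-3p was 0.919 in WT2, 0.952 in WT3 and 0.996 in WT5, against 2.10 in WT4, 2.26 in WT1 and 2.29 in WT6, so the ratio fell into 2 sets of 3 mice. The labels name no batch for these mice, and a part of array handling in these patterns was not tested.

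**Figure D5:**
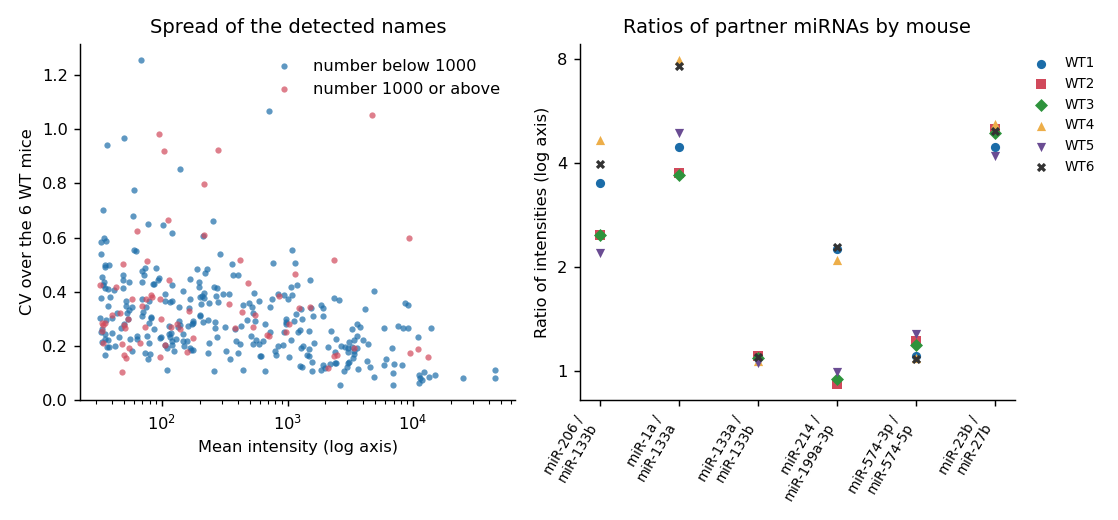
Left, CV over the 6 WT mice (y axis) against mean intensity (x axis, log scale) for the 359 detected names, with names numbered 1000 and above in red. Right, ratios of the intensities of partner miRNAs (y axis, log scale) with a point per WT mouse, where miR-133a over miR-133b lies between 1.06 and 1.11 and miR-214 over miR-199a-3p lies below 1 in WT2, WT3 and WT5 and above 2 in the others.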

How the data were processed

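Total RNA of quadriceps muscle was isolated with the miRVana kit and profiled by LC Biosciences with probes for miRBase 17. The authors deposited normalized intensity values, linear and in whole numbers; the normalization method, background correction and averaging of spots are not given in the sources used here. Only the 6 WT samples were used, grouped by title. No WT value was missing and 74 were 0. Intensities rest on no counts, so the number of mice limits the precision. The mice are separate animals, and their numbers are not said to mark litters. Means, SDs, shares of a mouse's summed intensity, arm percentages and CVs were computed with Python 3.11.15, numpy 2.4.6 and pandas 2.3.3, checked on simulated data, and plotted with matplotlib 3.10.9. No groups were tested, and single mice far from the rest were picked out with Dixon's critical value.

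RefSeq (GRCm38.p6) gave a gene for 349 of the 359 detected names and a mature sequence for 251, of which 95 matched by the same name, 2 by a newer name and 154 after the arm was assigned from standard naming. Genes of 1 strand with gaps under 10 kb formed a cluster; a name with genes at several places was kept apart (25 names, 22.7% of the signal). Strand came from the sequence table, or from the nearest gene in it.

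Names given in the text are the 20 brightest, members of the 8 leading seed families and 6 leading clusters, marker lists, the 10 brightest hairpins, the 5 nearest to equal arms with both arms at 100 or more, and the 6 lowest and 6 highest CVs among means of at least 500. Other names were chosen after their values were seen. The part of the data, its members and the lists were chosen with earlier results of these data known. Alternatives were leaving out each mouse, quantile normalization, subtraction of each sample's median, geometric means, other totals, minima, seed length and cluster distance.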

Additional observations from a re-analysis of the deposited data

Results flagged for a closer look

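Of 78 groups of 6 values looked at, 4 held a mouse far from the rest, where the gap to its nearest neighbour divided by the range exceeded Dixon's critical value for 6 samples; about 3.9 would do so by chance. miR-140* had a ratio of 0.784, with 2241 in WT6 and 270 to 695 in the other mice. miR-690 had 0.713, with 2244 in WT6 and 504 to 1004 in the others. miR-294 had 0.682, highest in WT3, with 49 to 77 in the others. The share of signal in the 20 brightest names had 0.657, with 46.0% in WT1 and 49.3% to 51.0% in the others. miR-140* and miR-690 are also among the least steady names, which were listed for their large spread. The number by chance holds for independent groups not chosen by their spread, so it is only a rough guide here. The causes were not tested.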

How the results depend on the processing

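No paired analysis was possible because no groups were compared. Of 355 values recomputed for 32 results, 327 moved by less than the SD between mice (counts by less than 1.5 times) and 28 by more. Most of the recomputed values came from leaving out a mouse, and 3 of those moved by more. Leaving out a mouse cannot move the mean share of a fixed set of names by as much as the SD. For such shares, the values with a mouse left out were therefore no test of stability. Without names numbered 1000 and above, the total is smaller by construction, and the shares were 37.9% for the 10 brightest names, 54.0% for the 20 brightest, 13.3% for let-7, 10.4% for the miR-495 cluster, 16.3% for muscle-enriched names and 17.2% for the Dlk1-Dio3 region. The hairpins with a brighter arm of at least 90% were 82.9% after subtraction of each sample's median intensity and 81.6% with at least 1 arm at 100, and 64.7% to 68.0% with a mouse left out. The hairpins with a brighter star arm were 26 with at least 1 arm at 100, against 40, but out of fewer hairpins, so a change in their fraction is not shown. The miR-127 cluster held 5.89% at a gap of 50 kb. Of the names on the array, 32.8% were detected at the minimum of 32, 22.4% at a minimum of 100 and 13.2% at a minimum of 500. The median spread was 0.417 as the SD of log2 intensity, another measure, and 0.219 for means of at least 500; with a mouse left out the median CV ran from 0.242 without WT1 to 0.294. Signal close to the median intensity, which includes most dim arms and the dark marker lists, has no order that these values can settle.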
